A study of Arabidopsis thaliana with 12 samples.

Results

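The transcripts described here come from the plastid and the mitochondrial genome of Arabidopsis thaliana. They are the loci whose identifiers start with ATCG (plastid) or ATMG (mitochondrial) in the count files, and they number 133 and 146, or 279 of the 28775 loci counted. The summed counts of both genomes took a larger part of the library in root tips after 4 h of dexamethasone (DEX) than in the control at 1 h. The plastid sum was 2.1-fold and the mitochondrial sum 2.03-fold that of the control, as ratios of geometric means over 3 libraries a group. Most counts of each sum came from a few loci without an assigned product, which may be rRNA or mRNA. Counts of nuclear ribosomal RNA (rRNA) moved the same way in the same libraries, and their values stand beside the organelle values below.

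Plastids and mitochondria keep small genomes of their own, inherited from bacterial ancestors. These genomes encode rRNA, tRNA and a limited set of proteins of photosynthesis, respiration and translation, while most organelle proteins are encoded in the nucleus and imported. Plastid genes are read by a bacterial-type RNA polymerase that needs nuclear sigma factors and by a nuclear phage-type polymerase, and mitochondrial genes by phage-type polymerases alone. Organelle transcripts in plants mostly carry no lasting poly(A) tail, and a tail added to them marks the RNA for decay. In root tips the plastids are mostly small and unpigmented, while mitochondria supply ATP to dividing cells.

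All 12 samples, controls included, were Col-0 seedlings with the transgene pRPS5A::DOF2.1-GR. In this construct the RPS5A promoter, active in dividing cells, drives the transcription factor DOF2.1 fused to the hormone-binding part of the glucocorticoid receptor, and DEX lets the fusion protein enter the nucleus. Seedlings 5 days old were placed on 10 µM DEX for 1, 2 or 4 h, and each sample pooled 300 root tips, with 3 biological repeats per group and 3 for a control labelled 1 h. The control's description has MS, as in its growth medium, in the place of DEX, and the labels do not state whether its seedlings were transferred too. With the single control at 1 h and the construct in every sample, effects of time, of DEX itself and of DOF2.1 cannot be told apart. Libraries were made with a stranded mRNA kit, which selects poly(A) RNA. Each library held between 14142082 and 17522834 counts. The p-values measure the spread between these pooled root-tip samples.

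Few organelle loci carried many counts. Of the 133 plastid loci, 25 were listed at 0 in all 12 libraries, 103 were above 0 but too low for testing, and 5 were tested. Of the 146 mitochondrial loci, 25 were listed at 0, 103 were too low and 18 were tested. A count of 0 in all libraries allows up to 3 counts, or 0.0155 CPM over the 12 libraries (CPM: counts divided by the library total, on the usual CPM scale), and this limit covers counting error only. The tested loci held 93.1% of the 23385 plastid counts and 98.9% of the 148412 mitochondrial counts. The reference annotation names organelle genes under other tags, and none of the 279 identifiers matched it directly. Names for 6 plastid and 24 mitochondrial loci came from notes on nuclear genes that cite them, and all other loci are given by identifier alone. Since transcript lengths could not be assigned, counts of different loci are shares of reads and not levels per length.

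Plastid counts took 79.7, 88.9 and 98.5 CPM in the 3 control libraries. They took 70.8, 75.9 and 107 CPM at DEX 1 h, 106, 137 and 137 at DEX 2 h, and 170, 142 and 265 at DEX 4 h. The DEX 1 h libraries overlapped the controls, while every library at 2 h and 4 h lay above all controls, and replicate 3 at 4 h was the highest of all. The group mean was 89.0 ± 9.41 CPM for the control, and after DEX it was 84.6 ± 19.6 at 1 h, 127 ± 17.7 at 2 h and 193 ± 64.5 at 4 h (SD, n = 3 each). The 4 groups differed by an exact permutation test over all 15400 partitions of the libraries (p = 0.00253, and 0.00253 adjusted over the 2 genomes). Single pairs of groups gave exact two-sided p = 0.7, 0.1 and 0.1 at 1, 2 and 4 h against the control, where 0.1 is the smallest that 3 against 3 can give. With the plastid loci summed to 1 feature in edgeR's quasi-likelihood fit, the log2 fold change at 4 h was 1.17 ± 0.25 (SE, adjusted p = 0.00432). It was 0.56 ± 0.25 at 2 h (adjusted p = 0.119) and -0.09 ± 0.25 at 1 h (adjusted p = 0.877), which did not pass in edgeR. Without replicate 3 at 4 h the 4 h value was 0.88.

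Mitochondrial counts were several times more numerous than plastid counts in each library. They took 526, 589 and 634 CPM in the controls and 488, 510 and 681 at DEX 1 h. They took 678, 826 and 795 CPM at DEX 2 h and 1100, 902 and 1650 at DEX 4 h. Again the 1 h libraries overlapped the controls, no library at 2 h or 4 h did, and replicate 3 at 4 h was highest. The mean was 583 ± 54.1 CPM for the control and, after DEX, 559 ± 106 at 1 h, 766 ± 78.4 at 2 h and 1220 ± 389 at 4 h (SD, n = 3 each). The exact permutation test over the 4 groups gave p = 0.00169 (0.00253 adjusted over the 2 genomes), and the pairwise exact p at 1, 2 and 4 h were 0.7, 0.1 and 0.1. In edgeR the summed mitochondrial counts changed by 1.12 ± 0.21 on the log2 scale at 4 h (SE, adjusted p = 0.00143). The edgeR values were 0.45 ± 0.21 at 2 h (adjusted p = 0.129) and -0.08 ± 0.21 at 1 h (adjusted p = 0.874). Without replicate 3 at 4 h the 4 h value was 0.85. In bulk root tips, a change in the number of cells of a type and a change in RNA per cell cannot be told apart.

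**Figure D1:**
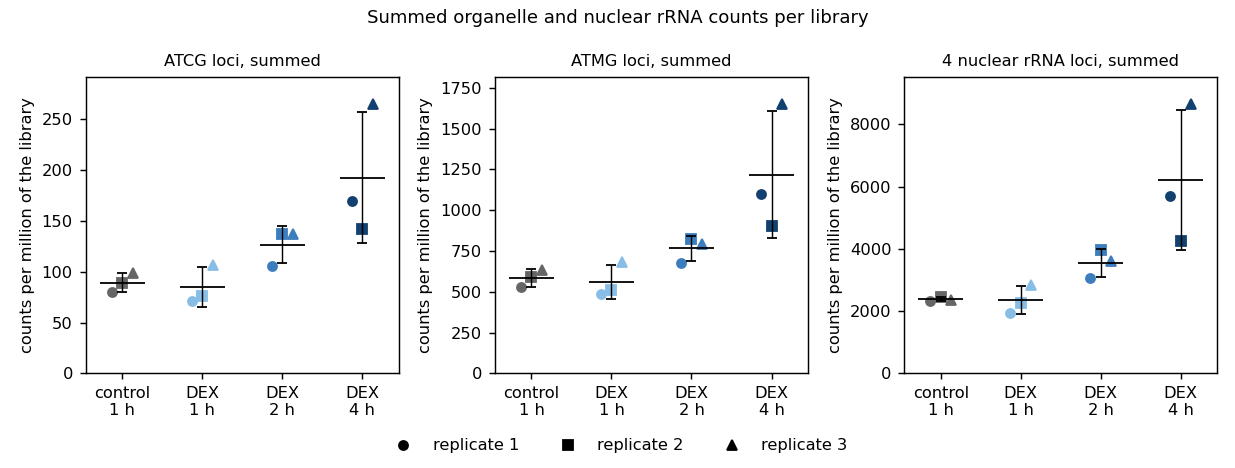
Summed plastid, mitochondrial and nuclear rRNA counts as CPM of each library (vertical axes, from 0) in the 4 groups of 3 libraries. Points are libraries, with marker shape for the replicate number, horizontal lines are means and bars are SD; in all 3 sums the DEX 2 h and DEX 4 h libraries lie above every control, and replicate 3 is highest at 4 h.

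Nuclear rRNA was listed at 4 loci, AT2G01010, AT2G01020, AT3G41768 and AT3G41979, which stand for RNA that passes poly(A) selection without being mRNA. AT3G41768 alone held between 96.0% and 97.4% of their sum in each library, so the sum is in effect that locus. AT2G01020 and AT3G41979 had identical values, and AT2G01010 was not called at 4 h (0.39 ± 0.76, edgeR adjusted p = 0.698). Their summed share was 2320, 2460 and 2360 CPM in the controls, 1940, 2260 and 2830 at DEX 1 h, 3060, 3950 and 3610 at DEX 2 h, and 5710, 4260 and 8650 at DEX 4 h. As for both organelle sums, the 2 h and 4 h libraries did not overlap the controls, and replicate 3 was highest at 1 h and at 4 h. The 4 h libraries held 2.5-fold the control share, as a ratio of geometric means, and the 4 groups differed (exact permutation p = 0.000519, a test added after the values were seen). What part poly(A) selection has in the organelle values was not tested. Both genomes can be set against nuclear rRNA within each library.

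Set against nuclear rRNA, the organelle sums were not higher at any time after DEX. Plastid counts per 100 nuclear rRNA counts were 3.74 ± 0.382 for the control and, after DEX, 3.6 ± 0.218 at 1 h, 3.58 ± 0.194 at 2 h and 3.13 ± 0.185 at 4 h (SD, n = 3 each). The 4 h libraries lay below all controls in this ratio, with a log2 difference of -0.25, and over the 4 groups the exact permutation p was 0.0709. Mitochondrial counts per 100 nuclear rRNA counts were 24.4 ± 2.12, 23.9 ± 1.33, 21.7 ± 0.695 and 19.8 ± 1.16 in the same order. This ratio was below all controls at 2 h (log2 difference -0.17) and at 4 h (-0.30), and the 4 groups differed (exact permutation p = 0.00649). The direction at 4 h was therefore opposite to that of the share of all counts in both genomes.

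The proportion between the genomes moved little. Plastid counts per 100 mitochondrial counts were 15.3 ± 0.241 for the control and, after DEX, 15.0 ± 0.617 at 1 h, 16.5 ± 0.787 at 2 h and 15.8 ± 0.253 at 4 h (SD, n = 3 each). All 2 h and 4 h libraries were above the controls in this ratio, by 0.11 and 0.05 on the log2 scale, and the exact permutation p over the 4 groups was 0.0321. The 3 ratio tests were added after the values were seen.

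**Figure D2:**
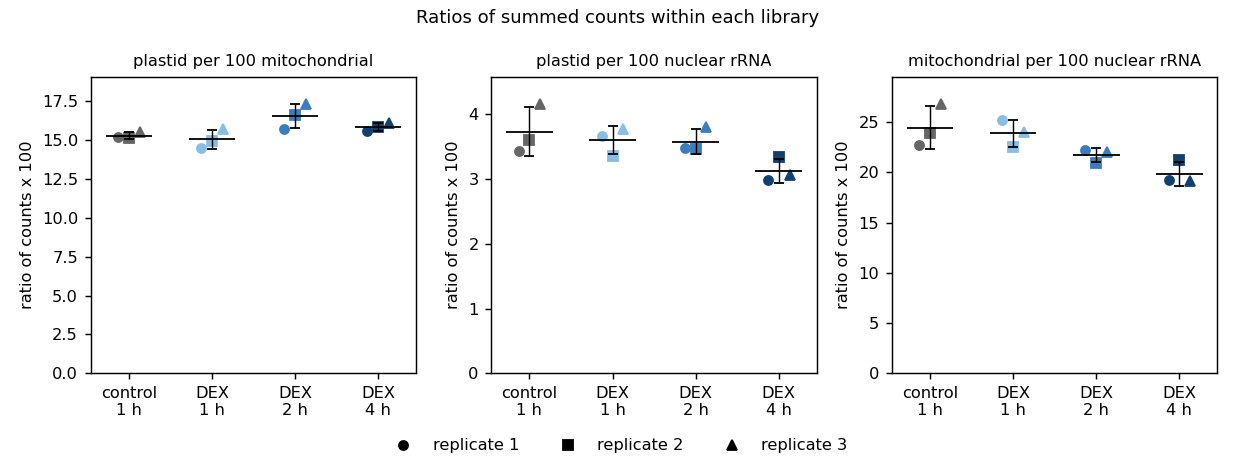
Ratios of summed counts within each library (vertical axes from 0, multiplied by 100): plastid to mitochondrial, plastid to nuclear rRNA and mitochondrial to nuclear rRNA, in 4 groups of 3 libraries. Points are libraries, lines are means and bars are SD; the plastid to mitochondrial ratio stays between 14.5 and 17.3, and both ratios to nuclear rRNA lie below the controls at DEX 4 h.

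Among single plastid loci, 4 made up nearly all counts. ATCG00950 and ATCG01180 had identical counts in all 12 libraries, as did ATCG00920 and ATCG01210, so each pair carries 1 measurement that cannot be divided between its loci. These 4 loci held between 89.2% and 93.8% of plastid counts in each library. No product was assigned to them, so whether the plastid sum is mostly rRNA or mRNA is not given here. Among loci with a sum of at least 0.005 counts, counts equal within 0.005 in every library were found in 18 plastid pairs and 9 mitochondrial pairs, several of them on 1 count or less.

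For ATCG00950, and equally ATCG01180, normalized CPM (with library totals scaled by TMM factors) were 25.3, 28.7 and 30.9 in the controls and 21.6, 23.9 and 34.5 at DEX 1 h. They were 36.1, 46.8 and 45.0 at 2 h and 58.9, 48.8 and 89.3 at 4 h. Libraries at 2 h and 4 h did not overlap the controls. The log2 fold change was 1.21 ± 0.24 at 4 h (SE, edgeR adjusted p = 0.00245). It was 0.59 ± 0.25 at 2 h (edgeR adjusted p = 0.0908) and -0.09 ± 0.25 at 1 h (0.886).

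ATCG00920, and equally ATCG01210, stood at 9.66, 10.8 and 13.2 normalized CPM in the controls and 8.18, 9.47 and 14.1 at DEX 1 h. At 2 h the values were 14.0, 18.0 and 19.5, and at 4 h they were 24.2, 18.4 and 36.5. The pattern over the libraries was that of the first pair, with no overlap with the controls at 2 h and 4 h. The log2 fold change at 4 h was 1.23 ± 0.28 (edgeR adjusted p = 0.00415).

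ATCG00190, to which the annotation used here gave no product, was the exception among the tested plastid loci. Its counts were 24, 24 and 36 in the controls, 28, 20 and 32 at DEX 1 h, 17, 25 and 16 at 2 h, and 16, 22 and 18 at 4 h. On these low counts the DEX libraries at 1 h and 2 h overlapped the controls, and those at 4 h lay at or below 22 against 24 or more. After scaling, its mean was 1.67 ± 0.453 normalized CPM in the control and 1.27 ± 0.11 at 4 h (SD, n = 3 each). The log2 fold change at 4 h was -0.38 ± 0.29 and did not pass (edgeR adjusted p = 0.29).

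Counted over the genome, 4 of 5 tested plastid loci were higher at 4 h and none was lower, where 24.7% of all 19733 tested loci were higher, 25.6% lower and 50.3% either. The 4 are the pairs with identical counts. A locus low in the control could pass the filter on low counts through its DEX 4 h libraries, so such counts describe the loci tested and not a whole genome. The median log2 fold change of the 5 was 1.21, beside 0.00 over all tested loci. At 2 h edgeR called 0 of 5 (2 at an unadjusted p under 0.05, and 2 by DESeq2), with a median of 0.59, beside 16.5% of all loci called higher and 18.5% lower, or 35.0% together. At 1 h it called 0 of 5 (0 at an unadjusted p under 0.05, and 0 by DESeq2), beside 5.03% of all loci called higher and 4.59% lower, or 9.62% together. The 3 comparisons share the control libraries.

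The other 129 plastid loci held few counts. Their sum was 8.96 ± 0.281 CPM for the control and, after DEX, 7.99 ± 2.02 at 1 h, 9.71 ± 1.07 at 2 h and 12.9 ± 3.15 at 4 h (SD, n = 3 each). Only at 4 h did these libraries not overlap the controls, with a log2 difference of 0.50. Over the 4 groups the exact permutation p was 0.0256, in a test added after the values were seen. Of the 133 plastid loci, 83 had fewer than 10 counts in all 12 libraries together, beside 93 of the 146 mitochondrial loci. No green tissue was sampled for comparison.

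**Figure D3:**
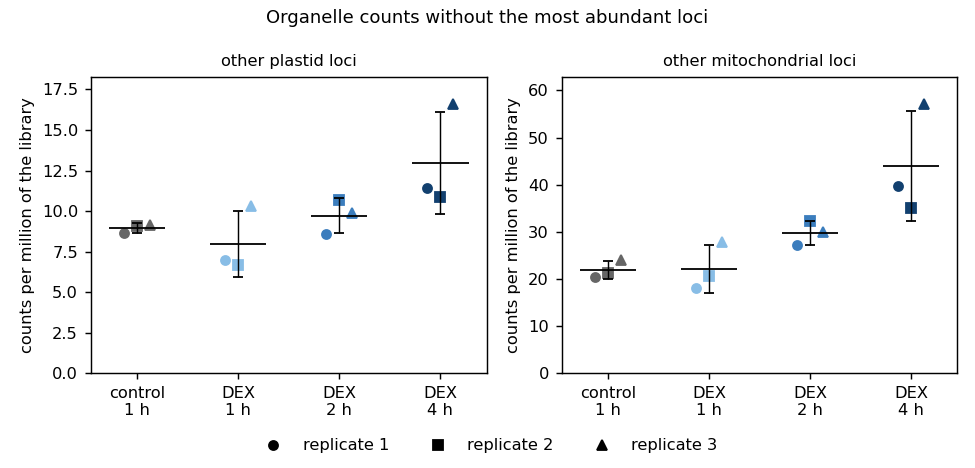
CPM of each library (vertical axes from 0) for the plastid loci without the 4 most abundant and the mitochondrial loci without the 3 most abundant. Points are libraries, lines are means and bars are SD for 3 libraries a group; the DEX 4 h libraries lie above the controls in both panels, and the DEX 2 h libraries do so in the mitochondrial panel.

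The 6 plastid loci named through notes on nuclear genes were all too low to test. ATCG00670, named plastid-encoded CLP P, a subunit of the plastid Clp protease, had 4, 4 and 4 counts in the controls, 1, 1 and 5 at DEX 1 h, 1, 3 and 6 at 2 h, and 4, 4 and 11 at 4 h. The highest library was again replicate 3 at 4 h. The 3 loci named as ribosomal proteins (L2, S11 and L20) had 78 counts in 12 libraries together, and their summed share was 0.444 CPM in the control and 0.58 at 4 h.

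Mitochondrial counts were likewise held by few loci. ATMG00020, ATMG01390 and ATMG00030 together took between 95.9% and 96.5% of mitochondrial counts in each library. These loci have no assigned product either, so whether the mitochondrial sum is mostly rRNA or mRNA is not given. ATMG00020 had 274, 295 and 323 normalized CPM in the controls, 240, 250 and 359 at DEX 1 h, 362, 437 and 412 at 2 h, and 581, 469 and 846 at 4 h. The 2 h and 4 h libraries lay above all controls. Its log2 fold change was 1.09 ± 0.22 at 4 h (SE, edgeR adjusted p = 0.00209) and 0.44 ± 0.22 at 2 h (edgeR adjusted p = 0.141).

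ATMG01390 had 205, 243 and 255 normalized CPM in the controls, 182, 203 and 272 at DEX 1 h, 279, 351 and 331 at 2 h, and 485, 387 and 707 at 4 h. ATMG00030 had 31.5 to 59.3 at 4 h. Both followed ATMG00020, with no overlap with the controls at 2 h and 4 h. At 4 h ATMG01390 rose by 1.17 ± 0.22 (edgeR adjusted p = 0.00176) and ATMG00030 by 0.99 ± 0.23 (edgeR adjusted p = 0.00562) on the log2 scale.

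ATMG00660 and ATMG01190 were the only mitochondrial loci called at both 2 h and 4 h. ATMG00660 had 4.21, 5.67 and 5.67 normalized CPM in the controls, 3.34, 4.07 and 5.85 at DEX 1 h, 7.49, 7.37 and 6.93 at 2 h, and 9.39, 7.99 and 9.26 at 4 h. The libraries at 2 h and 4 h formed groups above the controls, and replicate 3 at 4 h did not stand apart here. It rose by 0.49 ± 0.18 at 2 h (edgeR adjusted p = 0.0425) and by 0.77 ± 0.18 at 4 h (0.00162) on the log2 scale. The 2 h call was lost under 9 of the alternatives tried, with values from 0.36 to 0.56.

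ATMG01190, named ATP synthase subunit 1, encodes a subunit of the catalytic head of the mitochondrial ATP synthase. It had 2.69, 1.36 and 2.01 normalized CPM in the controls, 2.21, 2.37 and 4.74 at DEX 1 h, 3.4, 4.27 and 4.69 at 2 h, and 6.14, 5.84 and 8.22 at 4 h. The 1 h libraries overlapped the controls and the later ones did not. These values leave out reads assigned to its near-identical nuclear copy AT2G07698. With the copy added, the share was 5.45 ± 0.241 CPM in the control, 7.45 ± 1.8 at 2 h and 11.8 ± 3.21 at 4 h (SD, n = 3 each). For ATMG01190 alone the log2 fold change was 0.61 ± 0.31 at 1 h (edgeR adjusted p = 0.263), 1.02 ± 0.30 at 2 h (0.0173) and 1.73 ± 0.29 at 4 h (0.000198). The 2 h call was lost without control replicate 2 (0.80, adjusted p = 0.0766) and without DEX 2 h replicate 2 (0.99, 0.0515) or replicate 3 (0.92, 0.0643).

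**Figure D4:**
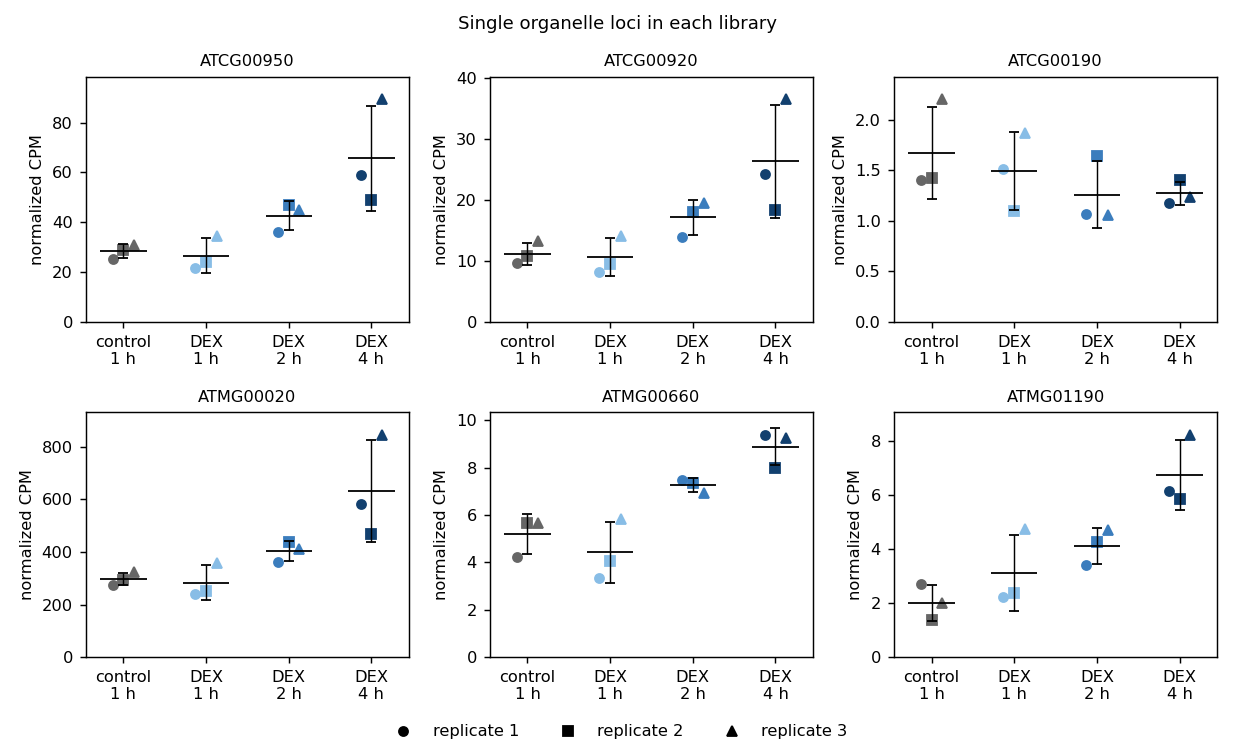
TMM-normalized CPM (vertical axes from 0) of 3 plastid loci (top) and 3 mitochondrial loci (bottom) in each library of the 4 groups. Points are libraries, lines are means and bars are SD for 3 libraries; ATCG00950, ATCG00920, ATMG00020, ATMG00660 and ATMG01190 lie above every control at DEX 2 h and DEX 4 h, and ATCG00190 does not.

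ATP synthase loci held the most counts of the classes made from names, with 1151 over 5 loci and the 12 libraries. Their summed share was 3.74, 2.85 and 3.34 CPM in the controls, 3.45, 3.83 and 6.46 at DEX 1 h, 5.39, 6.2 and 7.08 at 2 h, and 8.77, 8.22 and 13.6 at 4 h. The 2 h and 4 h libraries were all above the controls in this sum, which leaves out reads assigned to near-identical nuclear copies. With its copy AT2G07698 added, ATMG01190 had 87.59 counts in DEX 2 h replicate 1, against 87.97, 90.63 and 92.24 in the controls. Of the 4 tested members of the class 3 rose at 4 h, beside 24.7% of all loci called higher and 11 of the 18 mitochondrial loci tested. Beside ATMG01190 these were ATMG00410, named ATPase subunit 6-1, and ATMG01090, named ATP synthase 9, a subunit of the membrane ring, which was singled out after its values were seen. ATMG00410 passed the filter only through DEX libraries. ATMG01090 rose by 1.32 ± 0.41 (edgeR adjusted p = 0.0124), while ATMG01080, also named as subunit 9, had 1.22 with an edgeR adjusted p of 0.0555.

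ATMG00410 and ATMG00516 had the largest called log2 fold changes at 4 h, on very low counts. ATMG00410 had 0, 0.414 and 0 normalized CPM in the controls, 0.215, 0.385 and 0 at DEX 1 h, 0.755, 0.329 and 0.792 at 2 h, and 0.517, 0.444 and 2.0 at 4 h. ATMG00516 had 0.0585, 0 and 0.366 in the controls, 0.108, 0.275 and 0.351 at 1 h, 0.378, 0.986 and 0.33 at 2 h, and 0.665, 0.381 and 1.31 at 4 h. Replicate 3 at 4 h was the highest library for both. The log2 fold changes at 4 h were 2.76 ± 1.00 for ATMG00410 (edgeR adjusted p = 0.0344) and 2.42 ± 0.78 for ATMG00516 (0.0167). Without replicate 3 at 4 h they were 1.73 (adjusted p = 0.199) and 1.83 (0.105), so neither call held. With the near-identical nuclear copy AT2G07741 added, ATMG00410 had 0.92, 9.26 and 4.5 counts in the controls and 14.82, 10.42 and 29.14 at 4 h. These libraries did not overlap, and the summed share was 0.295 ± 0.249 CPM in the control and 1.23 ± 0.691 at 4 h (SD, n = 3 each). Calls were also lost without single control libraries, with adjusted p of 0.0993 and 0.0924 for ATMG00410 without replicate 1 or 3, and of 0.0651 and 0.0625 for ATMG00516 without replicate 1 or 2.

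Over the mitochondrial genome, 11 of 18 tested loci were called higher at 4 h and none lower, beside the 24.7% of all tested loci called higher. Among the 11, ATMG00410 and ATMG00516 had at most 0.414 and 0.366 normalized CPM in any control. They passed the filter only through DEX libraries, so their calls give no support for a rise of the genome. The median log2 fold change of the 18 was 1.08 at 4 h, beside 0.00 over all tested loci, and their values ran from -0.20 to 2.76. At 2 h 2 of 18 were called, both higher, beside 16.5% of all loci, with a median of 0.47. At 1 h edgeR called 0 of 18 (1 at an unadjusted p under 0.05, and 0 by DESeq2), beside 9.62% of all loci in either direction. Other loci called at 4 h, named here after their values were seen, were ATMG01360 (1.54 ± 0.35), ATMG00520 (1.07 ± 0.30) and ATMG00090 (0.87 ± 0.34), with edgeR adjusted p of 0.00173, 0.00636 and 0.0407. The loci not called at 4 h included ATMG00730, named cytochrome c oxidase subunit 3 of the last complex of the respiratory chain, at 1.19 (edgeR adjusted p = 0.113).

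**Figure D5:**
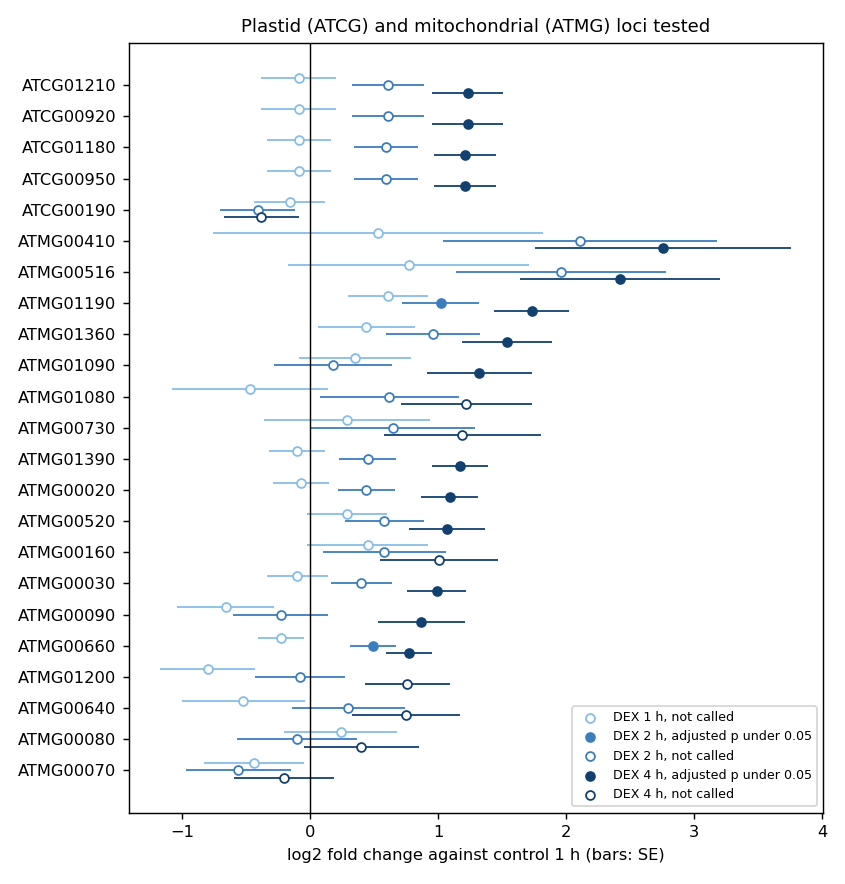
Log2 fold change against the control at 1 h (horizontal axis, bars are SE) of the 5 plastid and 18 mitochondrial loci tested, for DEX 1 h, 2 h and 4 h. Filled points have an edgeR adjusted p under 0.05; at 4 h 4 plastid and 11 mitochondrial loci are filled and all of these lie above 0, at 2 h ATMG00660 and ATMG01190 are, and at 1 h none is.

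Without the 3 most abundant loci, the remaining 143 mitochondrial loci gave 21.9 ± 1.86 CPM for the control and, after DEX, 22.2 ± 5.11 at 1 h, 29.8 ± 2.5 at 2 h and 44.0 ± 11.7 at 4 h (SD, n = 3 each). Libraries at 2 h and 4 h did not overlap the controls, and the log2 difference at 4 h was 0.98. The 4 groups differed (exact permutation p = 0.00247, added after the values were seen). Other respiratory classes made from names held fewer counts than ATP synthase. The classes draw on only 24 named mitochondrial loci, so they can lack members that stand among the unnamed loci, tested ones included. The 2 loci named for cytochrome c oxidase had 156 counts in 12 libraries, at 0.544, 0.302 and 0.726 CPM in the controls and 0.754, 0.608 and 2.42 at DEX 4 h, and these groups overlapped. The 3 loci named for NADH dehydrogenase, the entry complex of the respiratory chain, had 96 counts and were not tested, and the 3 loci of cytochrome c biogenesis had 24.

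Many mitochondrial loci have near-identical copies in the nuclear genome, so reads can be assigned to either. Notes in the annotation tie 62 nuclear loci to plastid or mitochondrial loci, whether as copies or as more distant relatives. Of these, 52 were in the count files, and 44 aligned over at least 90% of their length and at 95% identity or more to the mitochondrial genome of assembly TAIR10.1. They corresponded to 43 of the mitochondrial loci. The copies together had 15.5 ± 1.48 CPM for the control and, after DEX, 14.0 ± 0.947 at 1 h, 17.7 ± 2.55 at 2 h and 26.3 ± 5.96 at 4 h (SD, n = 3 each). The mitochondrial loci they match had 5.54 ± 0.502, 6.81 ± 2.48, 9.48 ± 1.49 and 14.5 ± 5.49. With both added together the 4 h libraries, between 33.2 and 54.0 CPM, lay above the controls, between 20.0 and 22.0.

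Of the 9 copies tested, 5 were called higher at 4 h and none lower, beside 24.7% of all loci higher and 25.6% lower. Among the 5, AT2G07687 (1.23 ± 0.49, edgeR adjusted p = 0.0469) would not have passed the filter without its DEX 4 h libraries. Its call therefore gives no support for a rise of the copies. The apocytochrome b locus ATMG00220 shows how reads were divided: it was listed at 0 except for 4.39 counts in DEX 1 h replicate 1, while its nuclear copy AT2G07727 had 11, 15 and 13 counts in the controls and 26, 38 and 53.86 at 4 h. AT2G07727 rose by 1.79 ± 0.34 (edgeR adjusted p = 0.000434). For ATMG01190 the copy AT2G07698 had a log2 fold change of 0.68 ± 0.31 at 4 h (edgeR adjusted p = 0.0833). Counts of ATMG01190 and AT2G07698 together were 87.97, 90.63 and 92.24 in the controls, 76.19, 95.26 and 140.33 at 1 h, 87.59, 136.01 and 126.78 at 2 h, and 142.97, 159.22 and 227.37 at 4 h. Only the 4 h libraries were all above the controls in this sum before scaling for depth. As a share of the library the sum was 5.45 ± 0.241 CPM in the control and 11.8 ± 3.21 at 4 h.

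Nuclear genes of the bacterial-type plastid polymerase were mostly higher after 2 h and 4 h of DEX. A list of organelle transcription and RNA turnover held 26 loci, of which 25 were tested. Of these, 12 were higher and none lower at 2 h, and 12 were higher and 3 lower at 4 h, beside 16.5% and 24.7% of all loci called higher. The median log2 fold change was 0.20 at 2 h and 0.29 at 4 h. Sigma factors, which bring the bacterial-type polymerase to promoters, were higher in 4 of 5 tested at both times. At 4 h SIGF rose by 0.97 ± 0.14 (edgeR adjusted p = 4.29e-05), SIGC by 0.81 ± 0.15 (0.000385), SIGA by 0.63 ± 0.13 (0.000646) and SIG2 by 0.55 ± 0.11 (0.000608) on the log2 scale. Proteins bound to that polymerase were higher in 8 of 12 at both times, among them PTAC7 with 0.94 ± 0.13 (edgeR adjusted p = 2.97e-05) and TRX z with 0.68 ± 0.11 (7.51e-05).

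None of the 3 phage-type polymerases was higher at 2 h or 4 h. The mitochondrial polymerase AT1G68990, listed as MGP3, fell by 0.22 ± 0.06 at 4 h (edgeR adjusted p = 0.00845), and the plastid polymerase SCA3 had 0.02 ± 0.09. Of the 5 genes of RNA turnover and processing, 2 fell at 4 h, beside 25.6% of all loci called lower. They were SHOT1, a mitochondrial protein of the transcription termination factor family, at -0.63 ± 0.13 (edgeR adjusted p = 0.00063), and AT5G14580, the mitochondrial polynucleotide phosphorylase, which degrades tailed RNA, at -0.42 ± 0.09 (0.00134). The plastid polynucleotide phosphorylase RIF10 had -0.05 ± 0.08 at 4 h (edgeR adjusted p = 0.667). At 1 h 2 of the 25 on the whole list were called, both lower, beside 4.59% of all loci called lower.

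Nuclear genes known to respond to mitochondrial dysfunction were called in both directions. Of 9 tested, 3 were higher and 3 lower at 4 h, with a median log2 fold change of -0.21. Over all loci 24.7% were higher and 25.6% lower, so neither count stands far from that share. AT2G21640 rose by 1.63 ± 0.18 (edgeR adjusted p = 3e-06), AT5G09570 by 2.12 ± 0.69 (0.0187) and AT5G51440, a small heat shock protein, by 1.40 ± 0.30 (0.00413). The level of AT5G09570 was very low, with means of 0.277 normalized CPM in the control and 1.26 at 4 h. AOX1A, the alternative oxidase that is the usual marker of this response, fell by 0.32 ± 0.10 on the log2 scale (edgeR adjusted p = 0.0133), as did NAC017, its transcription factor (-0.40 ± 0.07, 0.000169), and NDB2 (-0.23 ± 0.09, 0.0356).

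By the labels the tissue is root tips. The marker lists held transcripts of meristem, root cap and differentiating root, and some levels moved over time. All listed markers were above 0 in some library. The summed level of 6 root meristem markers ranged over 173 to 190 normalized CPM in the controls, and after DEX over 139 to 149 (1 h), 149 to 157 (2 h) and 127 to 149 (4 h). Members differed in direction: at 4 h WOX5 fell by 2.27 ± 0.26 (edgeR adjusted p = 4.14e-06), SCR, SHR and PLT1 were also lower, and CYCB1;1 rose by 0.43 ± 0.11 (0.00421). The 6 markers of green tissue summed to 21.8 to 30.0 in the controls, and after DEX to 26.9 to 35.8 (1 h), 39.1 to 43.6 (2 h) and 49.0 to 60.5 (4 h). Of these, PSBR rose at 4 h by 1.29 ± 0.11 (edgeR adjusted p = 2.53e-07), LHCA1 by 0.99 ± 0.21 (0.00108) and CAB1 by 0.70 ± 0.26 (0.0353), RBCS1A had 0.65 ± 0.27 (0.0555), and CA1 fell by 1.59 ± 0.51 (0.0155). LHCB2.1 was too low to test, between means of 0.0203 and 0.254. Root cap markers summed to 61.3 to 69.9 in the controls, and after DEX to 44.8 to 54.5 (1 h), 44.1 to 52.5 (2 h) and 61.9 to 65.5 (4 h). All 4 root cap markers were called lower at 2 h, beside 18.5% of all loci called lower. Markers of differentiating root summed to 193 to 248 in the controls, and after DEX to 213 to 229 (1 h), 161 to 211 (2 h) and 212 to 232 (4 h). At 4 h FEZ of the root cap fell by 1.03 ± 0.22 (edgeR adjusted p = 0.000869) and SHV2 of differentiating root by 0.70 ± 0.13 (0.000451). The other members of these 2 lists were not called at 4 h. The part of green-tissue transcripts in the plastid values was not tested.

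Comparisons between the DEX groups do not contrast with the control, although control libraries enter the filter and the estimate of the spread. Against DEX 1 h, the 4 h group was higher by 1.26 ± 0.25 for the plastid sum (SE, edgeR adjusted p = 0.00311) and by 1.20 ± 0.21 for the mitochondrial sum (0.00106) on the log2 scale. In this comparison 4 of 5 plastid and 12 of 18 mitochondrial loci were called, all higher, beside 24.1% of all loci called higher, 24.5% lower and 48.6% together. The plastid loci called are the pairs with identical counts. Among the 12, ATMG00640 (1.27 ± 0.45, edgeR adjusted p = 0.026) would not have passed the filter without its DEX 4 h libraries. Its call therefore gives no support for a rise of the genome. Leaving out 1 library gave 8 mitochondrial loci (without DEX 4 h replicate 3) to 17 (without control replicate 2). From 1 h to 2 h edgeR called 0 plastid loci (4 at an unadjusted p under 0.05, and 4 by DESeq2) and 1 mitochondrial locus, ATMG00660, beside 14.9% of all loci higher, 16.3% lower and 31.3% together. From 2 h to 4 h edgeR called 0 in either genome, with 4 plastid and 7 mitochondrial loci at an unadjusted p under 0.05 and 0 and 2 by DESeq2, beside 3.6% of all loci higher, 3.73% lower and 7.34% together. The summed plastid value from 2 h to 4 h was 0.61 ± 0.25 (edgeR adjusted p = 0.174) and the mitochondrial one 0.67 ± 0.21 (0.082). Without DEX 4 h replicate 3 they were 0.32 and 0.40, and without DEX 4 h replicate 2 they were 0.79 and 0.85, where the mitochondrial one passed (edgeR adjusted p = 0.0246).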

How the data were processed

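RNA from 12 samples, 4 groups of 3, was analysed. The values are expected counts per locus, as deposited by the authors, which need not be whole (91.0% to 91.9% were whole within 0.005). TAIR10, CASAVA, GSNAP, HTSeq and edgeR are named in the submitters' processing notes, without roles, and strand handling is not given in the sources used here. The members and the gene lists were chosen with earlier results of these data known.

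Counts were rounded and tested with edgeR 4.0.16 in R 4.3.3: filterByExpr (minimum count 10, minimum total 15), which kept 19733 loci with 99.95% of counts, TMM scaling, and a robust quasi-likelihood fit of group to all 12 libraries (common biological coefficient of variation 8.8%). P-values were adjusted by Benjamini-Hochberg over all loci tested, and loci called at 0.05. Each genome's sum was tested as 1 feature in a second fit of the same kind. Adjusted p-values come from these edgeR fits, or from the fit of the alternative named beside them. Each genome's share of counts was tested by exact permutation over 15400 partitions. Normalized CPM are TMM-scaled. Alternatives were other scalings, no filter, 2 groups only, a replicate block, DESeq2 1.42.0, libraries left out, and other denominators.

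Names came from the RefSeq annotation of TAIR10.1, and nuclear copies were aligned with blastn 2.17.0. Loci named in the text were the 5 most abundant of each genome, the 3 higher and 3 lower called loci of largest change in each comparison with the control, loci called with 1 sign in all 3, and a set of reference-named genes; others are marked. No 2 libraries agreed within sampling noise: the chi-square per locus between replicates was 3.01 to 8.31, and 19.0 for DEX 1 h replicates 1 and 3. The test was checked on simulated counts.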

Additional observations from a re-analysis of the deposited data

Results flagged for a closer look

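Differences between DEX times were singled out where the edgeR test of DEX 4 h against DEX 1 h passed, which is the test of whether the distance to the shared control differs between these times. The plastid sum differed by 1.26 (adjusted p = 0.00311) and the mitochondrial sum by 1.20 (0.00106) on the log2 scale in edgeR. Among the plastid loci, ATCG00950 and ATCG01180 differed by 1.3 (edgeR adjusted p = 0.00183) and ATCG00920 and ATCG01210 by 1.32 (0.00306). Among the mitochondrial loci the differences were 1.16 for ATMG00020 (edgeR adjusted p = 0.0016), 1.26 for ATMG01390 (0.00124) and 1.09 for ATMG00030 (0.00354). They were 1.01 for ATMG00660 (edgeR adjusted p = 0.000242) and 1.12 for ATMG01190 (0.00359). With 3 libraries a group, single libraries were not tested as outliers.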

How the results depend on the processing

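At 4 h against the control, the calls of 4 plastid loci and the directions of both sums held under every scaling, filter, tool and left-out library tried, while the mitochondrial loci called ran from 7 (without DEX 4 h replicate 3) to 14 with 1 library left out, and were 16 with no filter, 8 at 2-fold or more, and 7 without replicate 3 of both DEX 1 h and DEX 4 h. Leaving out single libraries gave exact p of 0.00136 to 0.0122 for the plastid share and 0.00143 to 0.0074 for the mitochondrial share. With nuclear rRNA as the denominator, a choice made after seeing the data, both values at 4 h lay below the controls, by -0.25 and -0.30 on the log2 scale. The pairwise exact permutation p was 0.1 for each. Over the 4 groups, in a test of any difference and not of direction, the exact permutation p was 0.0709 and 0.00649. The cause was not tested. Without the most abundant loci, loci with fractional counts, or organelle counts in the total, the shares kept their direction. The alternative without rRNA and tRNA loci was not run, as the identifiers carry no such annotation.

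At 2 h against the control the calls were unstable, and the cause was not tested. Plastid loci called were 0 to 4 and mitochondrial loci 0 to 3 with 1 library left out, 4 and 7 without both replicates 3, 4 and 6 with only the 2 groups compared, and 2 and 1 with DESeq2. The sums passed with only the 2 groups compared (0.57 and 0.45, adjusted p = 0.00914 and 0.0141, edgeR) and without both replicates 3 (0.57 and 0.45, edgeR adjusted p = 0.00655 and 0.00577), and ran from 0.49 to 0.67 and 0.38 to 0.53 with 1 library left out. Mitochondrial loci called were 1 with library totals and 1 at 2-fold or more.

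Between DEX 1 h and 2 h, plastid loci called were 0 to 4 and mitochondrial loci 1 to 5 with 1 library left out, 4 and 5 without both replicates 3, 4 and 4 with 2 groups, 4 and 2 with DESeq2, and mitochondrial 2 with no filter and 0 at 2-fold. The sums ran from 0.52 to 0.90 and from 0.41 to 0.73 with 1 library left out, and passed without both replicates 3 (0.90 and 0.73), with 2 groups (0.65 and 0.53) and, for the plastid sum, with DESeq2 (0.65). Between 2 h and 4 h, mitochondrial loci called were 0 to 4 with 1 library left out, 1 with 2 groups and 2 with DESeq2, and the plastid and mitochondrial sums ran from 0.32 to 0.79 and from 0.40 to 0.85, the last passing without DEX 4 h replicate 2. No filter gave 21 mitochondrial loci called from DEX 1 h to 4 h and 1 from control to DEX 1 h.

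Deviations of same-numbered replicates correlated weakly (r from -0.108 to 0.149 over 18 pairs, 3 above 0.1), so the numbers were not taken to pair the samples. As a hint from the data, 8 of 12 libraries correlated best with their own number, and replicate 3 had the highest plastid share in all 4 groups. With the replicate number as a block, 4 plastid and 5 mitochondrial loci were called at 2 h against control, 4 and 4 between 1 h and 2 h, and 4 and 3 between 2 h and 4 h. The sums passed with the block at 2 h against control (0.56 and 0.45), between 1 h and 2 h (0.68 and 0.55) and between 2 h and 4 h (0.58 and 0.64). At 4 h against control the block gave 4 and 10 loci, and ATMG00410 was no longer called (2.69, edgeR adjusted p = 0.0613).

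Nuclear transcription genes called at 1 h were 0 to 2 with 1 library left out, 0 with library totals, 2 groups or 2-fold, and 1 with DESeq2, DESeq2 size factors, no filter or the block. At 2-fold or more 0 were called at 2 h and 0 at 4 h. Mitochondrial dysfunction genes called with 1 library left out were 0 to 2 (1 h), 1 to 3 (2 h) and 3 to 6 (4 h), with 1 at 1 h by DESeq2, 2 at 1 h without both replicates 3, and 1 and 3 at 2-fold for 2 h and 4 h. Depth limits all loci but the 23 tested.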

Other observations

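The most abundant loci of each genome kept narrow proportions to each other over the libraries. ATMG01390 had between 74.8 and 83.5 counts per 100 counts of ATMG00020, and ATMG00030 between 6.52 and 7.94. The first ratio was 74.8, 82.2 and 79.1 in the controls and 83.5, 82.6 and 83.5 at DEX 4 h, so the 4 h libraries lay above all controls. ATCG00920 had between 37.6 and 43.4 counts per 100 of ATCG00950. For ATMG00030 and ATCG00920 the 4 h libraries overlapped the controls. ATCG00190 made up 1.79%, 1.61% and 2.26% of plastid counts in the controls, 2.28%, 1.5% and 1.74% at DEX 1 h, 0.982%, 1.17% and 0.76% at 2 h, and 0.664%, 0.957% and 0.464% at 4 h, so that the 2 h and 4 h libraries all lay below the controls in this share. These are descriptions with no test.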
